A study of Caenorhabditis elegans with 36 samples.

Results

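Chromosome V of Caenorhabditis elegans was divided from position 1 into non-overlapping windows of 50 kb, and poly(A) RNA was summed in each window. The question was where along the chromosome transcript level differed from wild type in animals labelled for xnp-1, the gene of a chromatin remodeller. A gene was placed in the window that holds its smallest annotated start, so no measured value chose the windows. Chromosome V gave 419 windows, each with at least 1 gene, of 2008 such windows in the genome. They hold 7870 of the 46926 annotated genes, 4991 of them protein-coding. The chromosome was cut by length into 3 nearly equal sections. The left section is windows 1 to 139 (V:1-6950000), the middle section is windows 140 to 279 (V:6950001-13950000) and the right section is windows 280 to 419 (V:13950001-20922732).

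Autosomes of C. elegans are holocentric and have a gene-dense central region flanked by arms, which are rich in repeats, carry more histone H3 lysine 9 methylation and hold many recently expanded gene families. Chromosome V is known for its large clusters of chemoreceptor, nuclear hormone receptor, F-box and C-type lectin genes. XNP-1 is the orthologue of human ATRX, a remodelling ATPase that in mammals is known for its work at repeats and heterochromatin.

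The study compared whole animals of 8 groups, each with 3 libraries. Embryos at 20 °C were wild type (strain N2) or labelled xnp1. L1 larvae, hatched from such embryos in M9 buffer without food for about 11 h at 20 °C, were N2 or labelled xnp1, and L4 larvae grown at 25 °C were N2, xnp-1, gsox-1 or xnp-1;gsox-1. The labels name no allele, the series' design text speaks of a knockdown, and no group differs from N2 by anything else that the labels give. The replicates are called biological, but the number of animals or cultures behind each is not given, so p-values measure the spread between these libraries. Because each library is a whole animal population, fewer cells of a type and less RNA per cell cannot be told apart.

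The early libraries held between 29896459 and 41520291 counted fragments and the L4 libraries between 39004451 and 45391494 counted reads, of which chromosome V took 14.3 to 17% and 14.3 to 15.2%. The xnp-1 transcript itself was at 131 ± 7.72 CPM (counts scaled to library size; SD, n = 3) in xnp1 embryos against 401 ± 28 in N2 embryos, and at 170 ± 6.62 against 249 ± 33.3 in L1 larvae. In L4 larvae it was at 46 ± 5.73 in xnp-1, 29.3 ± 7.64 in xnp-1;gsox-1, 92.2 ± 4.92 in gsox-1 and 75.5 ± 13.3 in N2. The gsox-1 transcript was at 78.5 ± 3.54 CPM in the group labelled gsox-1, against 56.9 ± 12.7 in N2 L4 larvae, so its level does not check that label. It was at 163 ± 14.9 in xnp-1 and 70.5 ± 24.7 in xnp-1;gsox-1 L4 larvae. In xnp1 embryos it was at 312 ± 60.9 against 218 ± 20.2 in N2, and in L1 larvae at 177 ± 21.7 against 127 ± 24.2. Markers of several tissues moved with the groups in embryos and in xnp-1 L4 larvae. In xnp-1 L4 larvae 16 oocyte and eggshell genes summed to 5759 to 7010 CPM against 176 to 408 in N2, 9 hypodermal genes to 206 to 340.0 against 2283 to 3093, and 8 germline genes to 2161 to 2592 against 898 to 1285. In the same larvae 15 early embryo genes summed to 14.4 to 18.2 CPM against 0.368 to 1.93 in N2, where 5 of them were at 0. Most of that sum was 1 gene, skr-7, at 11.7, 9.46 and 10.1 CPM in the xnp-1 libraries. In xnp1 embryos intestinal markers summed to 996 to 1307 CPM against 1720 to 2164 and muscle markers to 2926 to 4335 against 5083 to 6022. Library 1 of the xnp1 embryos stood apart, with 1474 CPM of oocyte and eggshell markers where the other 2 libraries had 746 and 754. Their early embryo and germline markers also reached 1039 and 808 CPM, with medians of 536 and 485. In L1 larvae the groups overlapped and libraries differed widely. Early embryo markers spanned 48.1 to 248.5 CPM in N2 and 65.9 to 242.6 in xnp1, and muscle markers 8141 to 19350 and 8059 to 14100. The part of these differences between groups and libraries in the results was not tested.

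Expression along chromosome V was highest in the middle. A window held a median of 16 genes in the left section, 21 in the middle and 19 in the right, and its median level in the early libraries was 170.0 CPM on the left, 432 in the middle and 98.9 on the right. At L4 the medians were 162, 365 and 103 CPM. The middle section gave 44.5 to 50.1% of all chromosome V counts in any library. Windows were often carried by a single transcript. In the early libraries 1 gene gave more than 50% of a window's counts in 225 of 419 windows, 57.3% of the outer windows and 46.4% of the middle ones, and in 29 windows it gave more than 90%. At L4 the share was 213 of the 418 windows with counts. A change of a window is therefore given here with the genes that make it up. Window and gene CPM were each scaled to their own table, so that a gene's CPM can slightly exceed that of its window. Of the genes, 284 (3.61%) reach into the next window.

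**Figure D1:**
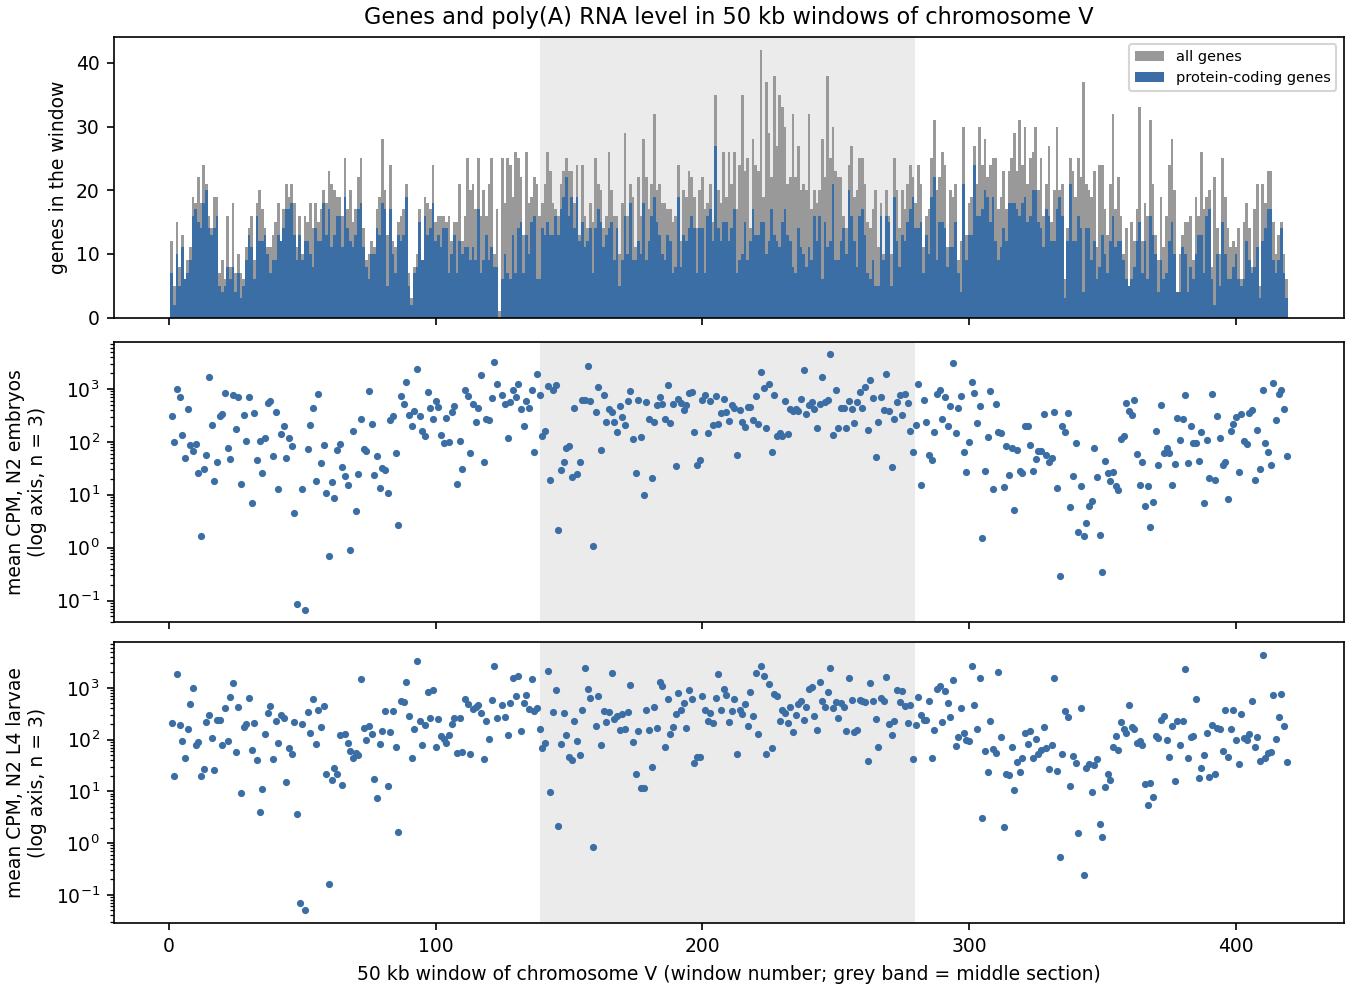
Genes per window (top) and mean CPM per window on a log axis in N2 embryos (middle) and N2 L4 larvae (bottom), against window number along chromosome V; the grey band is the middle section and each bar or point is 1 window. Windows of the middle section, with a median of 365 CPM at L4, lie above those of the left (162) and right (103) sections.

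In xnp1 embryos 8 of the 416 chromosome V windows tested differed from N2, 2 higher and 6 lower, and all 8 lay in the outer sections. Calls rest on edgeR's quasi-likelihood test, with p adjusted over all windows of the genome by the Benjamini-Hochberg method and a threshold of 0.05. The background was 0.5% of the 2001 windows tested genome-wide, 0.1% higher and 0.4% lower. On chromosome V the share was 1.92%, or 2.90% of the 276 outer windows and 0 of the 140 middle ones, and on the other chromosomes it was 2 of 1585, or 0.126%, both on chromosome IV. Whether these shares differ was not tested. By DESeq2 the chromosome V windows called were 20 in the outer sections and 3 in the middle, beside a background of 2.7% by that tool.

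The higher windows lay in the right section. Window 339 (V:16900001-16950000, 23 genes) stood at 46.3, 37.5 and 37.3 CPM in the 3 xnp1 libraries and at 23.0, 22.7 and 21.6 in N2, a log2 change of 0.85 ± 0.15 (SE; adjusted p = 0.0261). The groups did not overlap. Its rise was spread over 4 called genes, among them fbxa-206, which codes for an F-box protein of the kind that brings substrates to ubiquitin ligases. fbxa-206 was at 20.6, 11.99 and 12.4 CPM against 7.66, 5.66 and 5.80 (log2 change 1.23 ± 0.26, adjusted p = 0.0418). Next to it in the window, 2 annotated pseudogenes known by ID only, WBGene00014955 and WBGene00014954, rose by 1.78 and 1.57 on the log2 scale. Window 344 (V:17150001-17200000) held less RNA, 5.61, 6.33 and 6.39 CPM against 3.34, 2.35 and 3.18, and rose by 1.05 ± 0.19 (adjusted p = 0.0261). F40D4.13 in that window was at 2.43, 3.57 and 3.71 CPM against 0.413, 0.506 and 0.869 (log2 change 2.46 ± 0.34, adjusted p = 0.0035).

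Of the lower windows, 4 lay in the right section and 2 in the left. Each held exactly 1 called gene, and 2 of the 6 were still called when the gene with most counts was left out. The largest fall was in window 356 (V:17750001-17800000), at 3.35, 2.96 and 2.84 CPM in xnp1 embryos and 16.8, 8.04 and 11.2 in N2 (log2 change -1.98 ± 0.26, adjusted p = 0.0133). The 2 sets of libraries were well apart. Nearly all of this window was pgp-9, a P-glycoprotein-type ABC transporter gene, at 3.02, 2.78 and 2.75 CPM against 16.2, 8.12 and 10.7 (log2 change -2.03 ± 0.24, adjusted p = 0.00113). Window 397 (V:19800001-19850000) fell by 1.86 ± 0.33 (adjusted p = 0.0261) with pcp-4, a prolyl carboxypeptidase-like gene, at 1.13, 1.45 and 1.60 CPM against 9.07, 5.50 and 7.26. Window 392 (V:19550001-19600000) was at 3.95, 6.40 and 6.31 CPM against 21.4, 19.7 and 15.5 (log2 change -1.76 ± 0.31, adjusted p = 0.0261). There oac-1, an O-acyltransferase homologue, fell by 2.63 ± 0.52 (adjusted p = 0.0278), while kcnl-1, a calcium-activated potassium channel gene with more counts, changed by -1.34 ± 0.32 without passing the test (adjusted p = 0.068).

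Window 388 (V:19350001-19400000) was at 1.95, 2.61 and 2.94 CPM against 6.89, 7.57 and 6.56 (log2 change -1.49 ± 0.21, adjusted p = 0.0142). Its called gene was nceh-1, homologous to neutral cholesterol ester hydrolases, with 0.819, 1.12 and 0.926 CPM against 3.65, 4.74 and 4.204 (log2 change -2.13 ± 0.28, adjusted p = 0.00243). In the left section, window 73 (V:3600001-3650000) was at 32.2, 36.3 and 36.4 CPM against 85.5, 62.5 and 71.5 (log2 change -1.07 ± 0.17, adjusted p = 0.0233), led by F59B1.2, which fell by 1.13 ± 0.20. The remaining lower window, window 50, is described with its neighbours further on.

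The embryo calls rested on few libraries. Without N2 library 1, 2 or 3 the count of windows was 1, 5 and 0, without xnp1 library 1, 2 or 3 it was 3, 0 and 3, and each of the 8 windows lost its call in at least 1 of these fits. Fitting the embryo libraries alone called 0 windows (edgeR; 74 at an unadjusted p under 0.05), and DESeq2 called 23.

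At the level of single genes 64 of 3952 chromosome V genes passed in embryos, 15 higher and 49 lower, against a background of 1.11% of all genes tested (0.43% higher, 0.684% lower). The share was 1.62% on chromosome V, 2.22% in its outer sections, 0.743% in its middle section and 0.968% on the other chromosomes. The F-box gene fbxa-192 (V:17640672-17650527) was higher at 13.6, 11.9 and 10.2 CPM against 2.97, 3.95 and 3.13 (log2 change 1.83 ± 0.21, adjusted p = 0.000806), and so was set-31, which codes for a SET-domain protein, at 33.1, 26.7 and 24.9 against 10.4, 10.1 and 8.76 (log2 change 1.53 ± 0.19, adjusted p = 0.00164). In both genes every xnp1 library lay above every N2 library. Among lower genes, asp-8, an aspartyl protease gene, was at 0.113, 0.0764 and 0.103 CPM against 1.897, 0.822 and 1.08 (log2 change -3.67 ± 0.44, adjusted p = 0.00118). F10A3.4 fell by 2.14 and the middle-section gene spig-10 by 2.12.

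The counts of the large chromosome V families in embryos are given beside the share of all genes called. That share was 1.62% on chromosome V (0.38% higher, 1.24% lower) and 1.11% over the genome (0.43% higher, 0.684% lower). Of 888 chemoreceptor genes, 678 of them in the outer sections, 280 had enough counts to be tested and 1, str-225, rose (1.47, 1.40 and 1.75 CPM against 0.146, 0.284 and 0.313). Among 73 tested F-box genes of 87, 3 rose (fbxa-206, fbxa-192 and fbxa-114) and 3 fell (fbxa-82, fbxa-99 and fbxa-127), with a median change of 0.06 against -0.04 for all chromosome V genes tested. Nuclear hormone receptors had 0 higher and 3 lower of 153 tested (nhr-290, nhr-110 and nhr-226), and C-type lectins, carbohydrate-binding proteins often linked to pathogen response, 0 and 1 of 49 (clec-50). UDP-glucuronosyltransferases, which conjugate lipophilic compounds, had 1 higher (ugt-64) and 2 lower (ugt-16 and ugt-18) of 40. The cytochrome P450, transthyretin-related and cnc and nlp peptide lists had 1, 2 and 1 lower members and no higher one. Their median changes, over 41, 20 and 23 tested members, were -0.76, -0.68 and -0.44, and that of the UDP-glucuronosyltransferases was -0.43, beside -0.04 for all chromosome V genes tested.

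In L1 larvae 2 windows passed, 1 higher and 1 lower, against a background of 0.15% of windows (0.1% higher, 0.05% lower). Window 353 (V:17600001-17650000) rose to 23.1, 25.9 and 24.9 CPM from 7.88, 9.18 and 11.3 in N2 (log2 change 1.38 ± 0.23, adjusted p = 0.0441). Its leading gene was again fbxa-192, at 13.1, 13.7 and 12.2 CPM against 2.19, 2.35 and 2.37 (log2 change 2.50 ± 0.21, adjusted p = 7.32e-05). The lower window was window 50. Of single genes, 19 passed, 11 higher and 8 lower, against a background of 0.481% (0.362% higher, 0.119% lower), and 17 of the 19 lay in the outer sections, which held 2338 of the 3952 genes tested. The share called was 0.727% of outer and 0.124% of middle genes. Besides fbxa-192, Y102A5C.2 in window 339 rose by 1.89, F40D4.13 by 1.61, set-31 by 1.39 and ugt-64 by 1.16 on the log2 scale. Lower genes included C24B9.3 (log2 change -1.67), nceh-1 (-1.35) and F53E10.1, at 71.3, 62.8 and 62.1 CPM against 146, 114 and 110.2. Of the lists, F-box genes, chemoreceptors and UDP-glucuronosyltransferases had 1 higher member each (fbxa-192, str-225 and ugt-64), and C-type lectins 2 lower ones (clec-49 and clec-37).

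The replicate numbers paired the L1 libraries, whose same-numbered deviations from the group means correlated at 0.785, 0.505 and 0.712 across genes. With the replicate number as a block, 74 windows were called in L1 larvae, 16 higher and 58 lower, and 534 genes, 127 higher and 407 lower. The background with the block was 12.7% of windows (3.55% higher, 9.2% lower) and 11.6% of genes (3.52% higher, 8.03% lower). Of these windows 59 of 276 lay in the outer sections (21.4%) and 15 of 140 in the middle (10.7%), and of these genes 338 of 2256 (15%) and 196 of 1584 (12.4%). Window 339 had an adjusted p of 0.0954 without the block and 0.00221 with it, and window 73 one of 0.339 and 0.00126. With the block the lists had more called members. Chemoreceptors had 4 higher and 5 lower, F-box genes 6 and 4, nuclear hormone receptors 0 and 13, and C-type lectins 2 and 10. Cytochrome P450 genes had 14 lower, collagens and UDP-glucuronosyltransferases 9 each, cnc and nlp peptides and transthyretin-related genes 7 each, glutathione transferases 4 and fungus-induced peptides 3. Of these 7 lists, the UDP-glucuronosyltransferases had 1 higher member and the others 0. Histone genes had 2 higher and 0 lower, astacins 1 and 2, saposin-like genes 1 and 1, and MATH-domain and Skp1-related genes 1 lower each. The fit without the block tested 280 chemoreceptor, 73 F-box, 153 nuclear hormone receptor and 49 C-type lectin genes. It tested 41 cytochrome P450 genes, 32 collagens, 40 UDP-glucuronosyltransferases, 23 cnc and nlp peptides and 20 transthyretin-related genes. The smaller lists had 9 glutathione transferases, 8 fungus-induced peptides, 14 histones, 6 astacins, 3 saposin-like, 3 MATH-domain and 5 Skp1-related genes tested. Without the block, leaving out N2 library 1 gave 1 window and leaving out any other library 0, with 25 to 77 at an unadjusted p under 0.05 in edgeR. A direct test of whether the xnp1 effect differed between embryos and L1 larvae called 0 chromosome V windows by edgeR, with 13 at an unadjusted p under 0.05, and 0 by DESeq2, with 16.

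In xnp-1 L4 larvae 220 of 416 windows differed from N2, 103 higher and 117 lower. This is 52.9% of the chromosome V windows tested, beside a background of 55.4% over the genome (27.6% higher, 27.8% lower) and 56% on the other chromosomes. The share was 50% in the left section, 52.1% in the middle and 56.4% on the right. Single genes gave 742 higher and 937 lower of 3631, with a background of 48.5% (23.3% higher, 25.3% lower), and the gene share was 47.3% in the outer sections and 44.8% in the middle. As a description, the log2 changes of adjacent windows had a Pearson correlation of -0.01 and a Spearman correlation of 0.07 at xnp-1 L4 (412 pairs), 0.14 and 0.10 in embryos and 0.20 and 0.11 in L1 larvae (413 pairs each). Of the 103 higher windows 76 also held a called gene that was lower, and 50 held 3 or more higher genes. Of the 117 lower windows, 59 held a called gene that was higher and 75 held 3 or more lower genes.

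**Figure D2:**
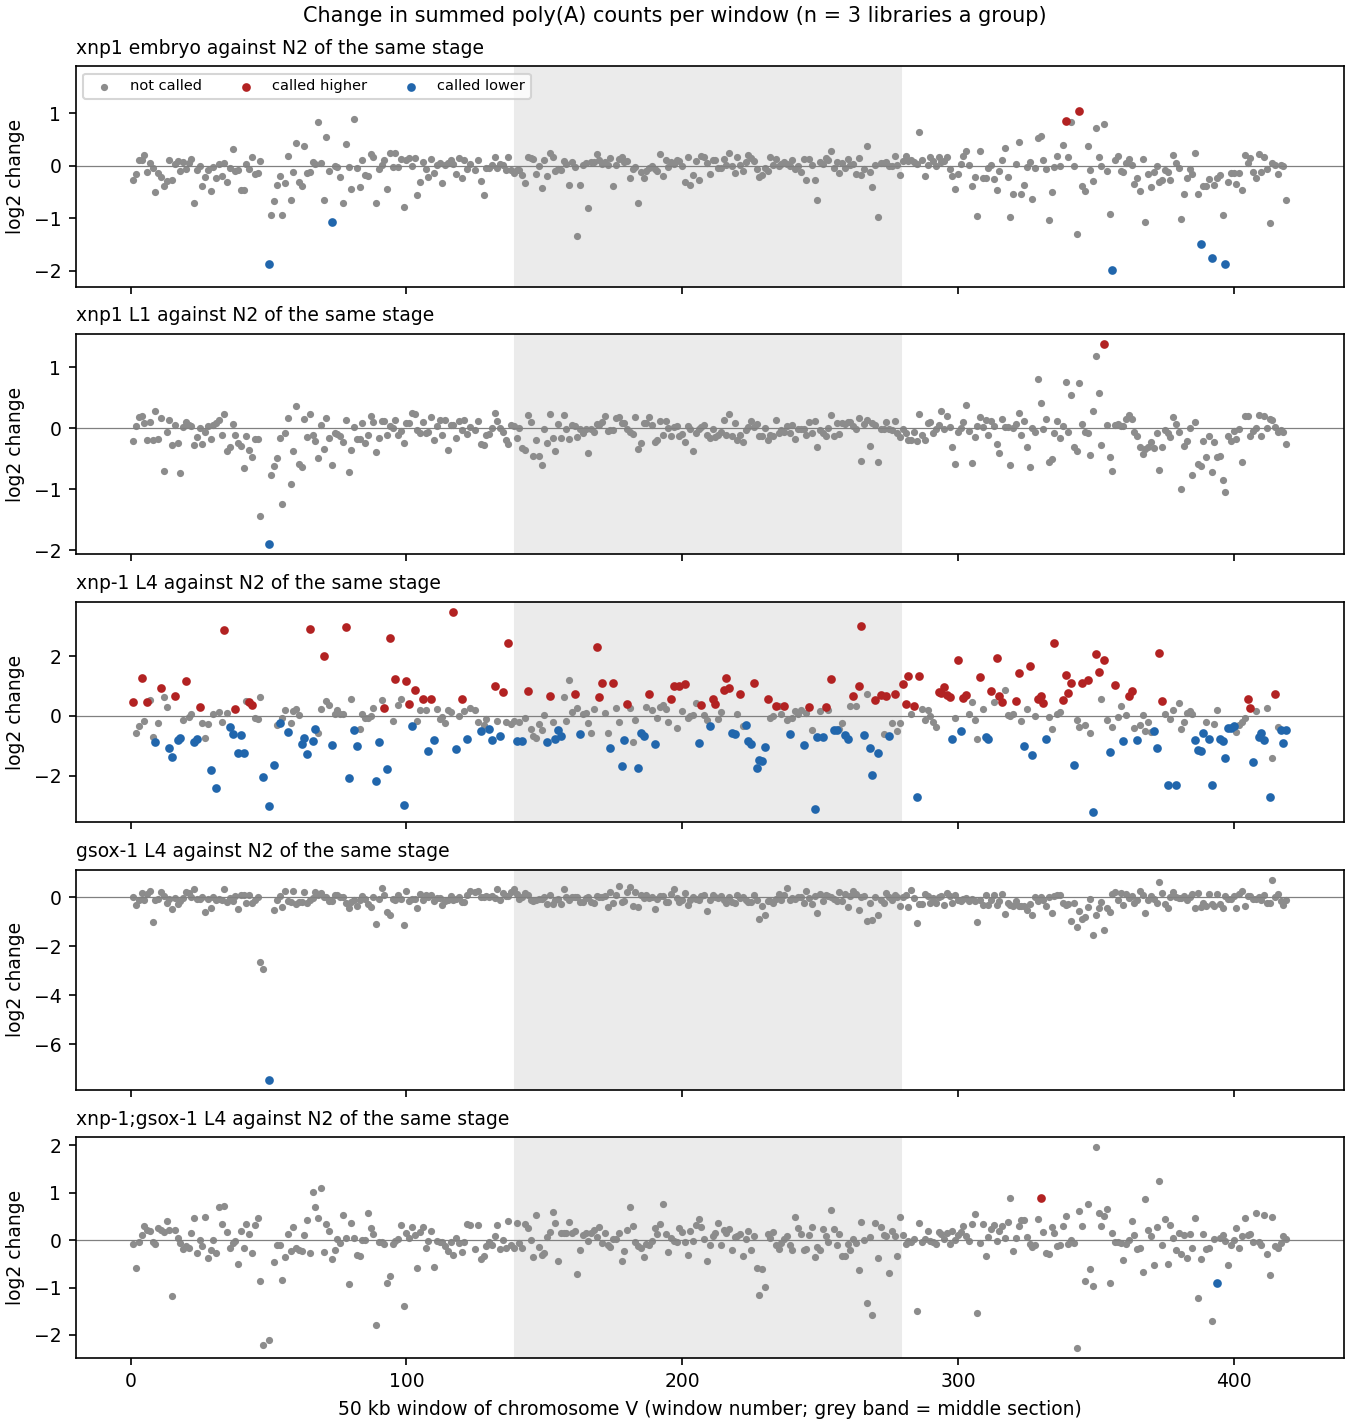
Log2 change against N2 of each chromosome V window by window number, in 5 comparisons, with called windows in red (higher) and blue (lower) and the middle section shaded. The xnp-1 L4 panel has 220 called windows over the whole chromosome, while the embryo panel has 8, all outside the shaded section.

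Of the 6 higher windows described at L4, chosen by size of change among those of sufficient level, 3 were led by collagen genes, which code for the cuticle. Window 117 (V:5800001-5850000) was at 3984, 3586 and 3499 CPM in xnp-1 against 213, 439 and 344 in N2 (log2 change 3.47 ± 0.26, adjusted p = 3.03e-06). Within it col-140 was at 3649, 3255 and 3249 CPM against 13.4, 195 and 46.8, while its neighbour let-418, a Mi-2-type remodeller gene, changed by 0.63 and did not pass (adjusted p = 0.0749, and 0.00765 with the replicate block). Window 265 (V:13200001-13250000) rose by 3.00 ± 0.56 with col-160, at 2063, 2108 and 1998 CPM against 87.4, 299 and 353. Window 94 (V:4650001-4700000) rose by 2.62, and there col-139 rose by 3.62 while K03B4.2 and taf-10, a TFIID subunit gene, rose by 1.56 and 1.59. Without the gene of most counts in each window over the 12 L4 libraries, window 117 changed by 0.39 (adjusted p = 0.12), window 265 by -0.41 (adjusted p = 0.0365) and window 94 by 0.60 (adjusted p = 0.00237).

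The other 3 were led by other kinds of gene. Window 78 (V:3850001-3900000) was at 74.1, 49.7 and 55.9 CPM against 7.90, 8.01 and 6.90 (log2 change 2.98, adjusted p = 5.9e-06). C17E7.4 in it was at 36.6, 25.1 and 30.0 CPM where the N2 libraries together held 5 reads. Window 65 (V:3200001-3250000) rose by 2.92 with apx-1, a Delta-like Notch ligand gene, at 86.6, 91.8 and 106 CPM against 5.68, 12.3 and 11.9. Window 34 (V:1650001-1700000) rose by 2.88 and changed by as much without its gene of most counts.

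Several chromosome V genes were present at xnp-1 L4 and had no read in any N2 L4 library. Against a floor of 3 reads over the group, lsy-27 was at least 732-fold higher (19.5, 16.1 and 18.5 CPM), C53A5.9 at least 652-fold, skr-7 at least 424-fold and Y47D7A.6 at least 352-fold. skr-7 codes for a Skp1-related protein of ubiquitin ligases and is on the list of early embryo markers. pzf-1 was at 14.5, 10.8 and 13.7 CPM where N2 held 1 read. The collagen gene col-143 was at 1203, 1105 and 1113 CPM against 0, 1.46 and 0.981.

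Among the lower windows chosen in the same way, window 248 (V:12350001-12400000) had the largest fall. It was at 229, 319 and 284 CPM against 2074, 2601 and 2556 (log2 change -3.12, adjusted p = 4.09e-05). In it sqt-3, a cuticle collagen known from mutants with altered body shape, was at 39.6, 148 and 129 CPM against 1801, 2475 and 2354 (log2 change -4.39 ± 0.58, adjusted p = 9.32e-05), and its neighbour F23H12.5 fell by 3.63. Without its gene of most counts the window changed by -0.39 (adjusted p = 0.0857). Window 99 (V:4900001-4950000) fell by 2.98 and was not carried by 1 gene: C02E7.6, H23N18.5 and C02E7.7 fell by 3.88, 4.00 and 2.99, and the window still changed by -2.55 without its gene of most counts. The N2 level of this window varied, at 965, 1304 and 511 CPM, but all 3 lay above the xnp-1 values of 116, 132 and 104.

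Window 285 (V:14200001-14250000) fell by 2.70 with K02E11.10, at 8.21, 26.5 and 23.0 CPM against 365, 637 and 286. Window 413 (V:20600001-20650000) fell by 2.69 with grd-2, a hedgehog-related gene, at 0.890, 4.95 and 3.25 CPM against 42.9, 52.3 and 42.6. Window 31 (V:1500001-1550000) fell by 2.41 with F52F10.2 and the O-acyltransferase homologue oac-32. Among lower genes with a mean log2 CPM of at least 1, gtnt-17 was at 0.198, 0.837 and 1.13 CPM against 78.2, 43.6 and 47.5, and its window mate gtnt-18 and B0554.4 had log2 changes of -6.24 and -6.28.

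Calls also came in short runs. Windows 293 to 297 (V:14600001-14850000) were all higher, by 0.63 to 0.97, and windows 338 to 341 (V:16850001-17050000), which include window 339, by 0.55 to 1.35. Windows 395 to 400 (V:19700001-20000000) were all lower, with log2 changes of -1.41 to -0.33, as were windows 386 to 389 (V:19250001-19450000), which include window 388, with -1.15 to -0.57. Windows 227 to 230 (V:11300001-11500000) had changes of -1.73 to -1.05. With more than 50% of windows called, how often runs of this length arise without any link between neighbours was not tested.

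The chromosome V families at L4 are described by counts beside a median log2 change of -0.26 over all 3631 chromosome V genes tested in xnp-1 against N2. Of those genes 20.4% were called higher and 25.8% lower, and of all genes tested 23.3% and 25.3%. Of 34 tested genes of the collagen list 7 rose and 13 fell (median -0.92). In the outer sections 5 were higher and 1 lower, and in the middle 2 were higher and 12 lower. The list was taken by name prefix (col, dpy, rol, sqt and bli), and dpy-11, among the 13 lower, is not a collagen gene. Histone genes had 1 higher (his-74) and 11 lower of 14 tested (median -1.86), such as his-3 at 1.58, 1.63 and 1.39 CPM against 14.8, 11.5 and 10.4. Most histone messages of animals lack a poly(A) tail, so for genes of that kind these counts are of a minor form. The list does not set apart histone genes whose messages do carry a tail. F-box genes had 19 higher and 15 lower of 56 (median 0.09). Of these fbxa-181 and fbxa-174 had no read in N2 and were at least 102-fold and 99.1-fold higher, while fbxa-154 was at least 12.8-fold lower. Nuclear hormone receptors had 7 higher and 19 lower of 131 (median -0.18), with nhr-231 at 4.85, 4.24 and 4.71 CPM against 1.74, 1.29 and 1.47. C-type lectins had 7 higher and 16 lower of 55: clec-223 rose to 10.2, 14.9 and 13.7 CPM from 0.424, 0.463 and 0.343, and clec-219 was at least 26.2-fold lower.

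Chemoreceptors, of which only 85 of 888 could be tested at L4, had 2 higher and 8 lower (median -0.52). Cytochrome P450 genes had 7 higher and 9 lower of 36, led by cyp-42A1 (log2 change -3.06), and UDP-glucuronosyltransferases 8 and 9 of 40, with ugt-63 higher by 2.07 and ugt-6 at a log2 change of -2.46. The fungus-induced peptide genes had 3 higher and 0 lower of 12, among them fipr-13 at 17.6, 15.5 and 14.5 CPM against 0.349, 0.293 and 0.343. The cnc and nlp peptide genes had 3 higher and 6 lower of 23, with cnc-3 at 4.52, 5.61 and 7.11 CPM against 174, 51.8 and 54.01. Transthyretin-related genes had 3 and 6 of 21, glutathione transferases 1 and 5 of 8, astacin metalloproteases 2 and 1 of 8, and saposin-like genes 0 and 1 of 4. Skp1-related genes had 3 higher of 5 (skr-7, skr-14 and skr-5), ribosomal proteins 5 lower of 8, MATH-domain genes 1 higher and sperm genes 0 of 2. With the replicate block, which called 55.9% of all genes (28.8% higher, 27.1% lower), some of these counts moved by more than 1.5 times. They became 12 higher and 16 lower for C-type lectins, 7 and 12 for nuclear hormone receptors, 6 and 0 for fungus-induced peptides, 3 and 2 for astacins, 2 and 5 for glutathione transferases, 0 and 2 for saposin-like genes and 2 and 0 for MATH-domain genes. The other lists moved by less. Chemoreceptors had 2 higher and 6 lower with the block, F-box genes 19 and 13, and collagens 7 and 14. Cytochrome P450 genes had 7 and 11, UDP-glucuronosyltransferases 8 and 11, and histone genes 1 and 12. The cnc and nlp peptides had 4 and 7, transthyretin-related genes 4 and 9, and ribosomal proteins 0 and 6. Lipase genes of the list were not found on chromosome V. The same hypodermal, oocyte and germline marker shifts given above run beside every one of these counts, and their part was not tested.

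Window 50 (V:2450001-2500000, 10 genes, left section) had a negative log2 change in all 5 comparisons with N2. In embryos it was at 1.95, 3.96 and 4.63 CPM in xnp1 and 15.8, 11.6 and 11.4 in N2 (log2 change -1.88 ± 0.30, adjusted p = 0.0233). In L1 larvae the values were 4.98, 7.13 and 7.19 against 20.3, 26.1 and 25.7 (log2 change -1.90 ± 0.29, adjusted p = 0.0365). At L4 it was at 30.8, 24.7 and 20.0 CPM in xnp-1 against 321, 167 and 115 in N2 (log2 change -2.999, adjusted p = 0.000612). In no stage did the libraries overlap.

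In gsox-1 L4 larvae window 50 was nearly empty, at 0.867, 1.05 and 1.48 CPM (log2 change -7.48 ± 0.65, adjusted p = 0.000498), and it was the only window of the genome called in that group, against a background of 0.05%. The adjusted p stayed at or under 0.0095 without any single library and was 1.05e-50 by DESeq2. In xnp-1;gsox-1 the window was at 84.9, 32.4 and 23.7 CPM (log2 change -2.1), with an adjusted p of 0.103 without and 0.00203 with the replicate block. All 3 L4 comparisons share the N2 L4 libraries.

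Almost all of window 50 was F56A4.3 (V:2453414-2456147, + strand), which gave 97.4% of its N2 L4 reads. F56A4.3 was at 302, 165 and 113 CPM in N2 L4 larvae and at 0.0939, 0.0728 and 0.260 in gsox-1, that is 23502 reads against 17 (log2 change -10.40 ± 0.73, edgeR adjusted p = 0.000155). It was at 28.8, 23.4 and 18.8 CPM in xnp-1 (log2 change -3.03, adjusted p = 0.000401) and at 72.8, 29.6 and 22.2 in xnp-1;gsox-1 (log2 change -2.22, adjusted p = 0.0537, and 3.29e-05 with the block). In xnp1 embryos it was at 2.03, 4.18 and 4.81 CPM against 15.9, 11.9 and 11.7, and in xnp1 L1 larvae at 4.22, 6.07 and 5.89 against 17.5, 22.7 and 21.1. The other genes of window 50 were low: irld-35, an insulin and EGF receptor-like L-domain gene, held 264 reads in N2 L4 larvae and 0 in gsox-1, at least 88.2-fold lower, with an adjusted p of 0.0523. F56A4.2 was at 2.24, 1.81 and 2.11 CPM in N2 and 0.211, 0.510 and 0.130 in gsox-1 (adjusted p = 0.29). Summed without its gene of most counts the window was still lower in gsox-1 (log2 change -2.31, adjusted p = 0.00143) and in xnp-1 L4 larvae (log2 change -1.62, adjusted p = 0.000104).

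F56A4.3 lies at the edge of a tandem duplication in the annotation. The first copy, bounded by its matched genes (V:2348215-2452460), holds 28 genes. Of these, 25 have a gene of like length in the second copy (V:2456176-2560739), at a distance of 107961 to 108279 bp. In 18 pairs the lengths are identical. F56A4.3 lies just after the first copy, and gst-10, a glutathione transferase gene (V:2561690-2564645), just after the second. Their starts are spaced within that range of distances, but their lengths, 496 and 719, are unlike and they were not matched. Of the 25 pairs 20 held under 20 reads over the 12 L4 libraries. Reads that match both copies cannot be placed, so values of genes in the copies, irld-35, F56A4.2 and clec-209 among them, are uncertain. Whether F56A4.3 and gst-10 are also copies was not tested, so their values may carry the same uncertainty. As counted, gst-10 fell in xnp-1 L4 larvae to 79.4, 72.6 and 62.4 CPM from 432, 268 and 163 (log2 change -2.01, adjusted p = 0.000812). In gsox-1 it was at 203, 199 and 235 CPM (log2 change -0.44, adjusted p = 0.882). Before the copies, window 47 (V:2300001-2350000) was at 35.3, 32.8 and 37.6 CPM in gsox-1 against 348, 190 and 133 in N2 without passing (log2 change -2.67, adjusted p = 0.406). It holds pud-3, one of the genes known to be up in daf-2 mutants, which was at 6.20, 4.85 and 8.28 CPM in gsox-1 against 104, 55.5 and 40.5 in N2 (adjusted p = 0.351).

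**Figure D3:**
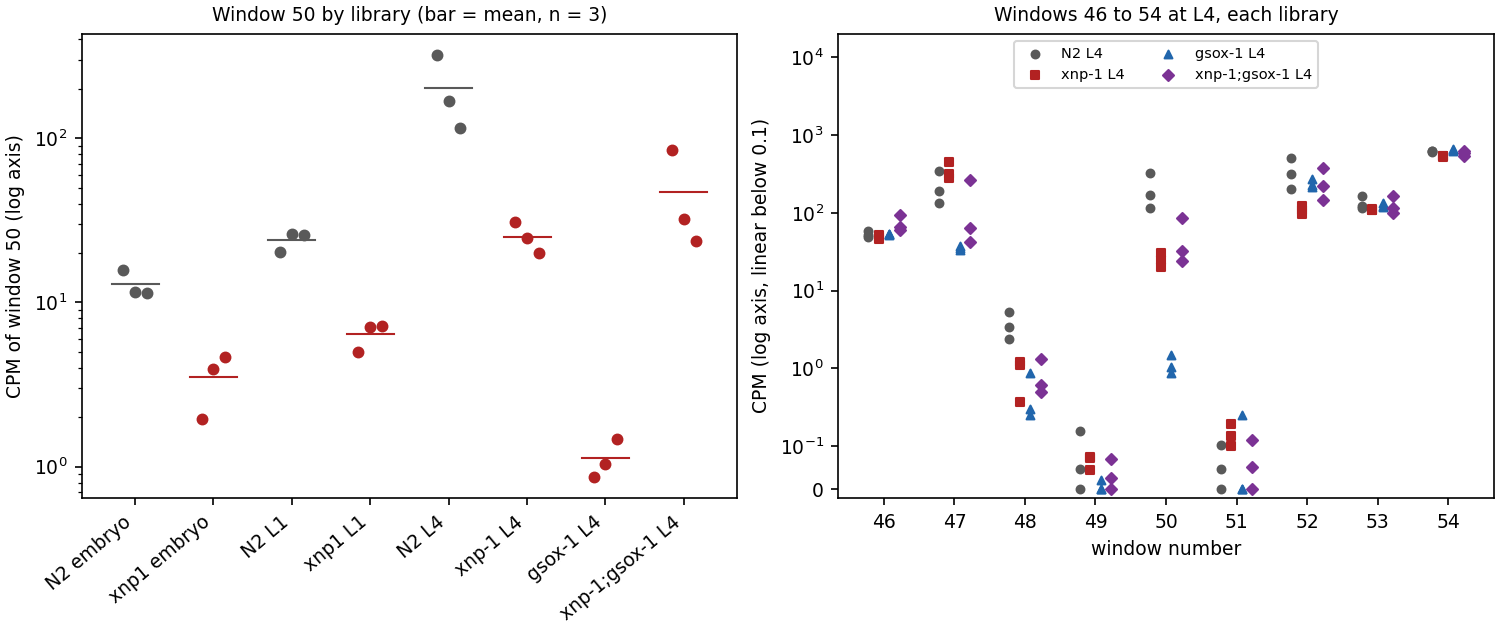
CPM of window 50 in each library of the 8 groups on a log axis (left), and each library of windows 46 to 54 at L4 for 4 genotypes on an axis that is linear below 0.1 and log above (right). The gsox-1 libraries sit between 0.867 and 1.48 CPM in window 50, below the N2 libraries at 115 to 321.

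Besides window 50, the gsox-1 L4 larvae showed few differences on chromosome V: 3 genes passed, 1 higher and 2 lower, against a background of 0.0229% (0.00572% higher, 0.0172% lower). The other 2 were srw-85, a chemoreceptor gene of the right section, at 6.95, 7.04 and 4.03 CPM against 0.673, 0.195 and 0.490 (log2 change 3.72 ± 0.50, adjusted p = 0.048), and scb-1 in the middle section, at 7.04, 4.76 and 4.43 CPM against 29.5, 22.6 and 24 (log2 change -2.23 ± 0.22, adjusted p = 0.00258). In both the groups did not overlap. DESeq2 called 5 windows and 26 genes, beside 0.4% of all windows and 0.343% of all genes.

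In xnp-1;gsox-1 L4 larvae 2 windows passed, 1 higher and 1 lower, against a background of 0.35% (0.25% higher, 0.1% lower). Window 330 (V:16450001-16500000) was at 61.2, 47.8 and 41 CPM against 27.9, 28.9 and 24.1 (log2 change 0.89 ± 0.16, adjusted p = 0.0436). Most of it was F36D3.1, which reaches into window 331 and rose by 1.195 (adjusted p = 0.0224), and without the gene of most counts the window changed by -0.09. Window 394 (V:19650001-19700000) was at 73.9, 89.3 and 93.2 CPM against 151, 162 and 166 (log2 change -0.90 ± 0.12, adjusted p = 0.0193). Y43F8C.13 fell there by 1.31 (adjusted p = 0.0157), and the ABC transporter gene mrp-7 and the anillin gene ani-3 changed by -0.77 and -0.51 without passing (adjusted p = 0.503 and 0.58, and 0.00295 and 0.0511 with the replicate block). The replicate numbers paired these libraries too (correlations of 0.548, 0.319 and 0.421), and with the block 45 windows were called, 17 higher and 28 lower, beside a background of 8.21% (2.3% higher, 5.91% lower).

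Single genes of xnp-1;gsox-1 numbered 17 higher and 28 lower, against a background of 1.04% (0.429% higher, 0.612% lower), and 163 higher and 247 lower with the block, which called 9.87% of all genes (3.43% higher, 6.44% lower). srw-85 was at 10.3, 8.37 and 12.4 CPM (log2 change 4.51 ± 0.51, adjusted p = 0.00242) where N2 had 0.673, 0.195 and 0.490. In xnp-1 alone the same gene was lower, at 0, 0.0985 and 0.0471 CPM (log2 change -3.14, adjusted p = 0.00281), too few reads to be tested with the block. F17C11.11 was at 41.02, 47.1 and 55.2 CPM against 9.69, 11.0 and 11.0 (log2 change 2.18, adjusted p = 0.000239), and ins-35, an insulin-like peptide gene, rose by 1.82. C53A5.9, absent from N2, was at least 58.0-fold higher. Among lower genes Y39B6A.9 had a log2 change of -4.34, oac-1 of -3.36, nceh-1 of -2.08 and the astacin gene nas-20 of -2.19. With the block Y39B6A.9 and nas-20 did not pass (adjusted p = 0.0677 and 0.0962, against 0.00379 and 0.0354 without it). In xnp-1 alone nas-20 was higher by 4.74. Of the lists, F-box genes and nuclear hormone receptors had 1 higher and 1 lower member each, chemoreceptors 1 higher, and collagens, UDP-glucuronosyltransferases and astacins 1 lower each. The numbers tested without the block were those given for the lists in xnp-1 L4 larvae. With the block F-box genes had 6 higher and 1 lower, nuclear hormone receptors 4 and 1, transthyretin-related genes 8 and 0, UDP-glucuronosyltransferases 3 and 8, collagens 2 and 7, C-type lectins 0 and 7, cytochrome P450 genes 1 and 4, cnc and nlp peptides 1 and 3, glutathione transferases 2 and 1, Skp1-related genes 1 and 1, and histone genes 1 and 0.

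Without xnp-1;gsox-1 library 1, 2 or 3 the count of windows in this comparison was 10, 0 and 2, and without N2 library 1, 2 or 3 it was 1, 0 and 0. DESeq2 called 36 windows, beside a background of 5.45%, and windows shifted by 25 kb gave 0 by edgeR, with 74 at an unadjusted p under 0.05.

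Set directly against xnp-1, the xnp-1;gsox-1 larvae differed in 204 windows, 111 higher and 93 lower, against a background of 50.2% (25.2% higher, 25% lower). This comparison shares the xnp-1 libraries with that of xnp-1 and N2, so its values are given beside the others only. Windows 117, 65, 94 and 78, high in xnp-1, had log2 changes of -3.8, -3.18, -3.37 and -2.93 in xnp-1;gsox-1 against xnp-1, and window 248, low in xnp-1, was higher by 2.77. The difference of window 50 between the genotypes, 0.90, did not pass (adjusted p = 0.142), and neither did that of window 392 (0.60, adjusted p = 0.229). That of window 285, 1.21, had an adjusted p of 0.0604 without and 0.00118 with the replicate block.

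The balance between the outer sections and the middle section was taken per library as the log2 ratio of their summed counts. In embryos it was 0.174, 0.155 and 0.146 in xnp1 and 0.159, 0.191 and 0.194 in N2, a difference of -0.02 (exact two-sided permutation test, p = 0.2). With 3 libraries against 3 this test cannot go below 0.1. The left section, taken by itself, reached that limit. It was at -0.605 ± 0.0046 (SD, n = 3) relative to the middle in xnp1 and -0.558 ± 0.0045 in N2 embryos (exact p = 0.1). Other chromosomes moved the same way in embryos. Their outer to middle ratios differed by -0.0754 on I, -0.0829 on III and -0.0475 on IV (exact p = 0.1 in each). On II and X the differences were -0.0381 and -0.0159 (exact p = 0.2 in both). In L1 larvae the chromosome V difference was -0.04 (exact p = 0.4). Both chromosome V differences moved with the measure. With the outer 25% at each end set against the middle 50% the differences were -0.09 in embryos and -0.12 in L1 larvae (exact p = 0.1 in both). As a mean over windows of log2(CPM + 1) they were -0.08 and -0.06 (exact p = 0.1 in both), and without the gene of most counts in each window -0.04 (exact p = 0.1) and -0.0082 (exact p = 1).

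At L4 the balance was 0.321, 0.282 and 0.270 in xnp-1 against 0.245, 0.185 and 0.215 in N2, a difference of 0.08 that reached the smallest exact p of 0.1 with no overlap. The sign changed with the measure: without the gene of most counts in each window the difference was -0.12 (exact p = 0.1), and with the outer 25% at each end set against the middle 50% it was -0.20 (exact p = 0.1). As a mean over windows of log2(CPM + 1) it was 0.02 (exact p = 0.5). On the other chromosomes the log2 ratio of summed counts changed by -0.28 on I, -0.23 on II, 0.02 on III, -0.36 on IV and 0.49 on X. In gsox-1 and xnp-1;gsox-1 this ratio on chromosome V differed from N2 by -0.0025 and -0.0129 (exact p = 0.9 in both). For the outer 25% at each end against the middle 50% these were -0.07 and -0.09 (exact p = 0.1 in both), as a mean over windows -0.08 (exact p = 0.1) and -0.01 (exact p = 0.7), and without the gene of most counts -0.01 (exact p = 0.5) and -0.06 (exact p = 0.4).

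**Figure D4:**
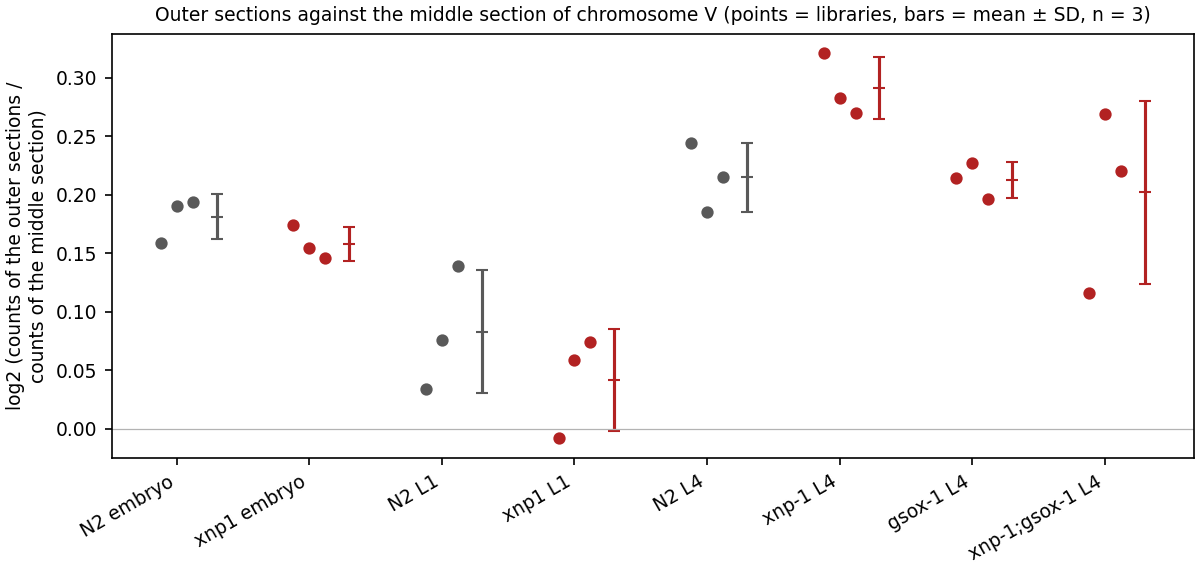
Log2 ratio of summed counts in the outer sections to the middle section of chromosome V, 1 point per library with the mean and SD of each of the 8 groups. The xnp-1 L4 libraries lie between 0.270 and 0.321, above the N2 L4 libraries at 0.185 to 0.245, while the other groups overlap with their N2 libraries.

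The spread of window changes, as opposed to their balance, was wider in the outer sections. The SD of the log2 changes was 0.41 over outer and 0.23 over middle windows in embryos, 0.34 and 0.16 in L1 larvae, 0.99 and 0.79 in xnp-1 L4 larvae, 0.58 and 0.24 in gsox-1 (0.38 over outer windows without window 50, left out after seeing the data) and 0.49 and 0.35 in xnp-1;gsox-1. Outer windows also held less RNA, which widens the counting error of each value, and the part of this was not tested. The median change of chromosome V windows was -0.02 in embryos and 0.02 on the other chromosomes, and at xnp-1 L4 it was -0.05 and -0.03.

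Embryos, L1 larvae and L4 larvae come from separate N2 libraries, so their calls can be set against each other, although embryos and L1 larvae share 1 fit. Of the 6 windows lower in embryos, 5 were also lower in xnp-1 L4 larvae (windows 50, 73, 388, 392 and 397), which is 83.3% of the embryo windows and 4.27% of the L4 ones, where 27.8% of all windows were called lower. All 6 were below 0 in L1 larvae and 1 of them, window 50, was called there, or all 6 with the replicate block, where 9.2% of all windows were called lower. Of the higher windows, 339 was higher again at L4, at 134, 122 and 121 CPM against 46.3, 58.5 and 42.6 (log2 change 1.35, adjusted p = 3.06e-05), while window 344 changed by -0.37 there (adjusted p = 0.332). With the block both were also called higher in L1 larvae, where it called 3.55% of all windows higher. Window 353, higher in L1 larvae, was higher at L4 by 1.86 (adjusted p = 5.9e-05) and changed by 0.80 in embryos (adjusted p = 0.187).

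Among single genes, 9 of the 15 higher ones in embryos were called higher in L1 larvae too, where 0.362% of all genes were called higher. The 9 are 60% of the embryo list and 81.8% of the L1 list. They include ugt-64, str-225, set-31, F40D4.13 and fbxa-192. With the block all 15 were called higher in L1 larvae, where it called 3.52% of all genes higher. At xnp-1 L4, 12 of the 15 embryo genes could be tested and all 12 were higher, where 23.3% of all genes were called higher. The 12 are 80.0% of the embryo list and 1.62% of the L4 list. Of the 49 genes that fell in embryos 5 fell in L1 larvae (F56A4.3, F53E10.1, C24B9.3, nceh-1 and Y43F8B.20), where 0.119% of all genes were called lower. With the block 30 of the 48 tested fell there, beside 8.03% of all genes. At xnp-1 L4 25 fell and 3 rose of 47 tested, where 25.3% of all genes were called lower and 23.3% higher. pgp-9, with a log2 change of -2.03 in embryos, changed by -0.73 in L1 larvae (adjusted p = 0.332, and 0.00102 with the block) and by -0.34 at L4 (adjusted p = 0.432).

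**Figure D5:**
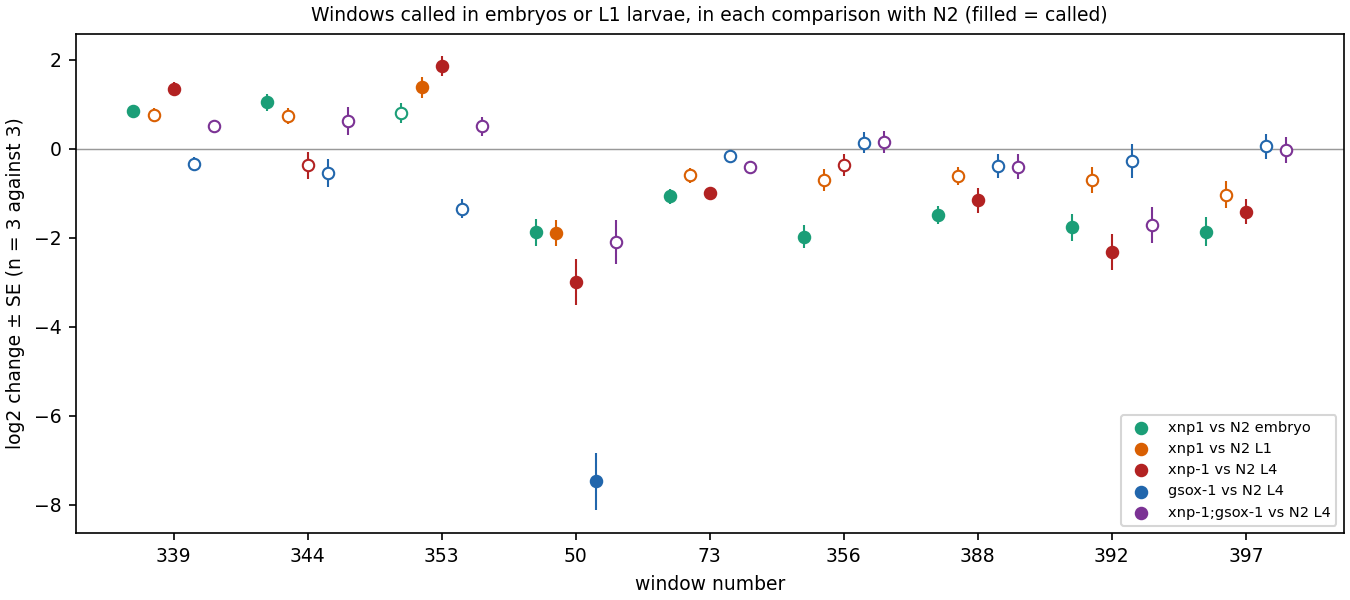
Log2 change with its SE of 9 chromosome V windows in 5 comparisons with N2, with filled points where the window was called. Window 50 lies below 0 in all 5 comparisons, from -1.88 in embryos to -7.48 in gsox-1 L4 larvae, and window 339 is above 0 in 4 of the 5.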

How the data were processed

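The authors deposited 2 tables of raw counts per gene, and each was fitted apart. Per the file headers, counts came from featureCounts 2.0.1 (embryo and L1, fragments) and 2.0.6 (L4, reads), reverse-stranded, with a mapping quality of at least 10, on the WS280 gene set, from whose coordinates positions here are taken. Per the submitters' processing notes FastQC, Trim Galore, STAR and SAMtools were used. The early libraries were sequenced at the Oxford Genomics Centre and the L4 libraries at Novogene, per the labels' protocols, so stage and centre cannot be told apart. Small RNA libraries were not used here.

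Counts were summed per 50 kb window over the whole genome. Windows and genes that passed edgeR's filterByExpr were tested with edgeR 4.0.16 (TMM, robust quasi-likelihood fit of 4 groups, Benjamini-Hochberg adjustment over the whole table, threshold 0.05; limma 3.58.1, R 4.3.3) and, as an alternative, DESeq2 1.42.0. The script was tested on simulated data. CPM use TMM library sizes. Named windows are the 6 per comparison and direction with the largest change, a mean log2 CPM of at least 3 and no overlap; window 344 falls outside this rule. Named genes are the 3 that moved most in each such window and the 6 per direction with the largest change, a mean log2 CPM of at least 1 and no overlap; in the lists, examples were chosen after their values were seen. Lists were taken by name prefix, so that of collagens holds dpy-11, which is not a collagen gene. The windows, lists and tests were chosen with earlier results of these data known.

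Replicate numbers come from the labels. Same-numbered libraries deviated together (correlation over 0.1 in every pair) for L1, for xnp-1 L4 (0.236, 0.158 and 0.151), for xnp-1;gsox-1, and for xnp-1;gsox-1 against xnp-1 (0.271, 0.136 and 0.154), so there the blocked value is printed where it changes the call of a named window or gene or moves a count. Gene names came from the reference tables, which matched 43127 of 46926 genes, 6771 of 7870 on chromosome V.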

Additional observations from a re-analysis of the deposited data

How the results depend on the processing

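Of the chromosome V results recomputed, 144 values kept their direction and size class, 53 moved and 6 turned sign. DESeq2 called more than edgeR in the sparse comparisons: 23 windows and 175 genes in embryos, 8 and 63 in L1 larvae, 5 and 26 in gsox-1, 36 and 216 in xnp-1;gsox-1. Fitting only the groups compared called 0 windows by edgeR in embryos, L1 larvae and xnp-1;gsox-1, with 74, 26 and 49 at an unadjusted p under 0.05. Leaving out the gene of most counts per window gave 4 windows in L1 larvae and 8 in xnp-1;gsox-1, and windows shifted by 25 kb gave 0 in xnp-1;gsox-1 (74 at an unadjusted p under 0.05). The cause was not tested.

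With the replicate block the calls were 74 windows and 534 genes in L1 larvae and 45 windows and 410 genes in xnp-1;gsox-1, where the numbers pair the libraries. In embryos (correlations of 0.031, 0.078 and -0.06) and gsox-1 (-0.081, -0.41 and -0.262) libraries share only a number, and the block gave 0 windows and 196 genes in embryos and 0 of each in gsox-1 by edgeR (63 embryo windows, 9 gsox-1 windows and 70 gsox-1 genes at an unadjusted p under 0.05), where window 50 had an adjusted p of 0.108. At xnp-1 L4 the block gave 257 windows and 1833 genes, and moved no other total of windows or genes by over 1.5 times. In the comparisons with N2 that the numbers pair, the named windows and genes and the lists whose call or count it changed have both values above.

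Leaving out 1 library gave 0 to 5 windows and 15 to 54 genes in embryos, 0 to 1 and 4 to 19 in L1 larvae, 176 to 206 and 1351 to 1556 at xnp-1 L4, 1 to 2 and 2 to 3 in gsox-1, 0 to 10 and 9 to 46 in xnp-1;gsox-1, and 155 to 216 windows between xnp-1;gsox-1 and xnp-1. Embryo genes fell to 15 without N2 library 1, 20 without xnp1 library 2, 24 without xnp1 library 1, 25 without xnp1 library 3 and 29 without N2 library 3. Without xnp1 library 1, whose oocyte markers stood apart, 3 embryo windows were called, all lower. L1 genes numbered 9, 8 and 19 without N2 library 1, 2 or 3 and 14, 4 and 7 without xnp1 library 1, 2 or 3. In xnp-1;gsox-1 they numbered 46, 9 and 15 without its own library 1, 2 or 3 and 38, 17 and 21 without N2 library 1, 2 or 3. The 2 windows in gsox-1 were without N2 library 3.

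With 1 library left out, the difference of outer and middle sections ranged from -0.034 to -0.0165 in embryos, -0.066 to -0.0136 in L1 larvae, 0.0613 to 0.0912 at xnp-1 L4, -0.0174 to 0.0125 in gsox-1 and -0.0466 to 0.0301 in xnp-1;gsox-1. It turned sign in gsox-1 without N2 library 1 (0.0125) or gsox-1 library 3 (0.0057), and in xnp-1;gsox-1 without N2 library 1 (0.0021) or its own library 1 (0.0301). At xnp-1 L4 it was -0.1236 without the gene of most counts per window and -0.1964 for the outer 25% at each end against the middle 50%. Few of the low genes could be tested: of 888 chemoreceptor genes 85 had enough reads at L4 and 280 in embryos and L1 larvae. The part of depth in this was not tested.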
